A study of Rattus norvegicus with 120 samples.

Results

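Srebf1, 3 desaturases, 4 enzymes of fatty acid synthesis and elongation, malic enzyme and Thrsp were followed through kidney and heart of ZSF1 rats. These 10 genes were taken by their symbols from the 30560 genes of the deposited count tables, and no measured value entered their choice by rule, although earlier results of these data were known when they were chosen. All 10 were found by symbol. All 10 passed the filter on low counts in every kidney comparison and 8 passed it in heart, where Elovl6 and Thrsp were too low to be tested within the organ.

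Srebf1 encodes SREBP-1, a transcription factor held in the endoplasmic reticulum as a precursor with its escort SCAP, retained there by the INSIG proteins, and cut free to enter the nucleus in lipogenic states. SREBP-1c, which insulin and the liver X receptors induce at the transcript level in liver, is known to raise the genes of fatty acid synthesis and desaturation. In that pathway ATP citrate lyase makes cytosolic acetyl-CoA, acetyl-CoA carboxylase makes malonyl-CoA, fatty acid synthase builds palmitate with NADPH that malic enzyme helps to supply, and elongases and desaturases lengthen the chain and put in double bonds. The kidney tubule takes much of its energy from fatty acid oxidation.

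Bulk RNA sequencing with poly-A selection covered kidney and heart from rats aged 30 weeks, in 120 libraries of 1 rat each that fall into 12 groups of 10. The labels say kidney, and the study's text speaks of both whole kidney and cortex. ZSF1 obese rats carry mutated leptin receptors and develop obesity, diabetes and kidney disease, and ZSF1 lean rats are their comparators. Study A held obese rats given BT2, obese rats given vehicle and lean rats given vehicle. Study B held obese rats given BT2 with empagliflozin (combination), obese rats given empagliflozin and obese rats given vehicle. BT2 inhibits BDK, the kinase that inactivates the branched-chain ketoacid dehydrogenase, and empagliflozin inhibits SGLT2, the glucose transporter of the proximal tubule. Both were given in chow, their doses are not given here, and the vehicle groups of the 2 studies are separate rats.

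In units of 1000000 counts, the 58 deep kidney libraries held 4.6 to 54.86 and the 60 heart libraries 6.74 to 23.58. A pair of shallow kidney libraries, BT2 replicate 2 with 22774 counts and study B vehicle replicate 8 with 776178 counts, stayed in the tests but were left out of levels and ranges. Levels are CPM, counts per 1000000 counts after TMM scaling within an organ, without regard to gene length, so they are compared between groups and not between genes. Kidney libraries carried the tubule genes Umod, the uromodulin of the thick ascending limb, at 2170 to 5710 CPM and Lrp2, the megalin of the proximal tubule, at 927 to 4180 CPM. Heart libraries carried summed heart muscle markers (4 of 5 found) at 18300 to 33800 CPM. Transcripts of another tissue, or of the atrium in heart, stood out in 6 kidney and 11 heart libraries, which stayed in the tests.

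Promoter windows were at hand for 7 of the 10 genes (Srebf1, Scd2, Fads1, Fads2, Acly, Me1 and Thrsp), matched by symbol to RefSeq on build GRCr8, while the submitters' processing notes name mRatBN7.2. Shown are the 250 bases before the start of the regulator, at both of its RefSeq starts, of Scd2 and Fads2, which were called in kidney with obesity, BT2, empagliflozin and the combination, and of Acly, which passed the test in no kidney comparison. They are written 5′ to 3′ in the direction of transcription, with matches to a CCAAT box (CCAAT) or a GC box (GGGCGG) on either strand in capitals.
Srebf1, first start, chr10:45529165-45529414, minus strand: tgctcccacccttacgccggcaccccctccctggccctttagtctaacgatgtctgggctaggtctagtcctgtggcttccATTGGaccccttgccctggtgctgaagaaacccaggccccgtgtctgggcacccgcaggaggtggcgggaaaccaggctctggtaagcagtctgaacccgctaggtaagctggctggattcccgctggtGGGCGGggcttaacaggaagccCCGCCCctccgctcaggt
Srebf1, second start, chr10:45519011-45519260, minus strand: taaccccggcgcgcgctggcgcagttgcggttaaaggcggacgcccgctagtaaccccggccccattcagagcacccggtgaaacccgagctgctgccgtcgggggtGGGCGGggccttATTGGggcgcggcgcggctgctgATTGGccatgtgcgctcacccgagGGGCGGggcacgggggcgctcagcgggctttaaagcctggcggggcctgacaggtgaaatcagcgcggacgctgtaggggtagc
Scd2, chr1:253118127-253118376, plus strand: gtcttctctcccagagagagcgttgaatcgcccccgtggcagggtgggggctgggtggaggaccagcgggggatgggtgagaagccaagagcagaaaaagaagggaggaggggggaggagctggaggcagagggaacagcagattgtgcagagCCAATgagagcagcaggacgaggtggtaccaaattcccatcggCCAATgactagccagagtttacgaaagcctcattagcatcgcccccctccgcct
Fads2, chr1:216172034-216172283, minus strand: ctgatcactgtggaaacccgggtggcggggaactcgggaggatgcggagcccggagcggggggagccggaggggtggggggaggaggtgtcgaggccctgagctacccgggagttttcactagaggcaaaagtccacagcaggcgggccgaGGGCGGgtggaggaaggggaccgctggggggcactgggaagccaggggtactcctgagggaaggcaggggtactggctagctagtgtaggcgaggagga
Acly, chr10:85963632-85963881, minus strand: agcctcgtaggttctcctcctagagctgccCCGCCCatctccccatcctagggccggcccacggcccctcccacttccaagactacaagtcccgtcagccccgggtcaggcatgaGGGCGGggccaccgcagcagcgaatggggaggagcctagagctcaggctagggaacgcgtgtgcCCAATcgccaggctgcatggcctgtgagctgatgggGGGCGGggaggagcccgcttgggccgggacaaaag
The counts are per gene, so transcripts of the 2 Srebf1 starts could not be told apart. In windows of 250 bases before and 50 after the start, GGGCGG was found in 6 of the 7 genes, against 33.1% of 33469 windows over all genes. CCAAT was found in 5 of the 7, against 37.5% of windows. The sterol regulatory element in the form TCACNCCAC was found in 0 of 7, against 1.12% of windows, and the E-box CACGTG in 0 of 7, against 6.42%. The nuclear receptor core AGGTCA was found in 0 of 7, against 16.2% of windows. Both strands were searched, no match of one motif overlapped a match of another, and a match describes the letters only. Scd2, Fads1, Fads2 and Thrsp all lie on chromosome 1, and Srebf1 and Acly on chromosome 10. Scd2 also has a neighbour and paralog on chromosome 1, Scd, another stearoyl-CoA desaturase, and reads that fit both could have been split between them.

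In kidney, obesity went with lower Srebf1, lower levels of the 3 desaturases of the 10 genes and lower Me1. The enzymes that build palmitate did not pass the test, nor did Scd, outside the 10 (-0.51, edgeR adjusted p = 0.469). The edgeR quasi-likelihood test called 6 of the 10 genes lower and 1 higher in obese vehicle than in lean vehicle kidney, where 32.0% of 14230 genes were called, with 15.2% called lower and 16.9% called higher. A gene is called at an adjusted p under 0.05. In 2 of the 10, Scd2 and Me1, the groups did not overlap, against 3.10% of all genes. The median log2 fold change of the 10 was -0.61, and that of all genes -0.018. In whole tissue, fewer cells of a type and less RNA per cell cannot be told apart. Summed markers of kidney tubule (4 of 4 found) had a median of 7580 CPM (6770 to 8460) in obese vehicle kidney and 11700 CPM (5400 to 12900) in lean vehicle kidney. Summed macrophage markers (3 of 3) had a median of 119 CPM (76.2 to 150) in obese vehicle kidney and 64.3 CPM (56.4 to 76.1) in lean vehicle kidney. In lean replicate 8 the heart muscle gene Actc1 stood at 2460 CPM, and summed skeletal muscle markers (3 of 3) reached 19200 CPM in the lean group, beside a lean median of 66.4 CPM. Without that library all 7 genes were still called, with Srebf1 at -0.81, Scd2 at -0.91 and Me1 at -0.90. The part of tubule and macrophage markers in these results was not tested.

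Srebf1 (ENSRNOG00000003463) had a median of 28.5 CPM (19.9 to 40.8) in obese vehicle kidney and 51.8 CPM (37.5 to 63.6) in lean vehicle kidney. The ranges met only at their ends, and all 10 obese libraries lay below the lean median. Its log2 fold change was -0.81 ± 0.12 (SE, n = 10 and 10, edgeR adjusted p = 3.26e-05), a 1.75-fold lower level. Scd2 (ENSRNOG00000046005), a stearoyl-CoA desaturase that makes monounsaturated fatty acids, had a median of 88.9 CPM (55.9 to 107) in obese vehicle kidney and 162 CPM (118 to 213) in lean vehicle kidney. The log2 fold change was -0.88 ± 0.09 (adjusted p = 8.29e-07), and no obese library reached the lowest lean one. Fads2 (ENSRNOG00000020440), the delta-6 desaturase that starts the synthesis of polyunsaturated fatty acids, fell to a median of 33 CPM (19.0 to 41.7) in obese vehicle kidney, against 60.7 CPM (35.9 to 70.8) in lean vehicle kidney. Fads1 (ENSRNOG00000020480), the delta-5 desaturase of the same route, was lower too, with a log2 fold change of -0.42 ± 0.10 and edgeR adjusted p = 0.00235. Its ranges of 47.3 to 80.9 CPM in obese vehicle kidney and 56.5 to 122 CPM in lean vehicle kidney overlapped.

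Me1 (ENSRNOG00000009715), the cytosolic malic enzyme, stood at a mean of 99.0 ± 6.96 CPM in obese vehicle kidney and 189 ± 9.98 CPM in lean vehicle kidney (SD, n = 10 each). The highest obese library, at 107 CPM, was well below the lowest lean library, at 175 CPM, and the log2 fold change was -0.91 ± 0.05 (edgeR adjusted p = 3.46e-10). Fasn (ENSRNOG00000045636), the synthase itself, had a median of 67.3 CPM in obese vehicle kidney and 64.5 CPM in lean vehicle kidney, and its adjusted p was 0.276. Acaca (ENSRNOG00000034013), acetyl-CoA carboxylase alpha, differed by -0.07 on the log2 scale (95% interval -0.19 to 0.04), and Acly (ENSRNOG00000016924), ATP citrate lyase, by 0.10 (-0.02 to 0.23). Elovl6 (ENSRNOG00000048949), which elongates palmitate, was the one gene called higher, at 0.31 ± 0.09 with adjusted p = 0.0132. Its medians were 12.8 CPM in obese vehicle kidney and 10.2 CPM in lean vehicle kidney, and its adjusted p was 0.0677 without the plate term and 0.212 with all 6 kidney groups in one fit.

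Thrsp (ENSRNOG00000012404), a small nuclear protein that thyroid hormone and carbohydrate induce in liver and fat, had a median of 1.54 CPM (0.525 to 4.61) in obese vehicle kidney and 4.00 CPM (0.858 to 18.7) in lean vehicle kidney. The log2 fold change was -1.52 ± 0.48 (edgeR adjusted p = 0.0199), and 9 of 10 obese libraries lay below the lean median. Lean replicates 7 and 5 led the lean group at 18.7 and 12.9 CPM. The same pair led the kidney libraries in Ucp1, the uncoupling protein of brown fat, at 10.5 and 7.94 CPM, beside a kidney median of 0.0889 CPM. White fat markers set the pair apart less evenly. Plin1, the lipid droplet coat of adipocytes, reached 9.57 CPM in replicate 7, whereas replicate 5 had 2.43 CPM. Obese vehicle replicate 4 of study A, with 2.62 CPM of Plin1, stayed in the alternative fit that follows. For the adiponectin gene Adipoq, replicate 7 had 21.9 CPM and replicate 5 had 12.4 CPM, where the kidney median was 12.2 CPM. Without the 4 lean libraries high in Plin1 or Ucp1 the Thrsp difference was -0.52 with adjusted p = 0.413, an alternative chosen after the data were seen. Me1, Srebf1 and Scd2 were at -0.92, -0.90 and -0.93 without those libraries, each still past the threshold. Summed white adipocyte markers (6 of 6 found) ran from 35.2 to 67.2 CPM in obese vehicle kidney and from 45.0 to 96.3 CPM in lean vehicle kidney. Over the 58 deep kidney libraries most of this sum was Cidec, with a median of 43.0 CPM beside 0.32 CPM for Plin1. The part of fat cells in the Thrsp difference was not tested. Within plate 2 alone the Fads1, Fads2, Elovl6 and Thrsp differences (-0.34, -0.82, 0.23 and -1.92) did not pass, while Srebf1, Scd2 and Me1 did at -0.65, -0.86 and -0.95.

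**Figure D1:**
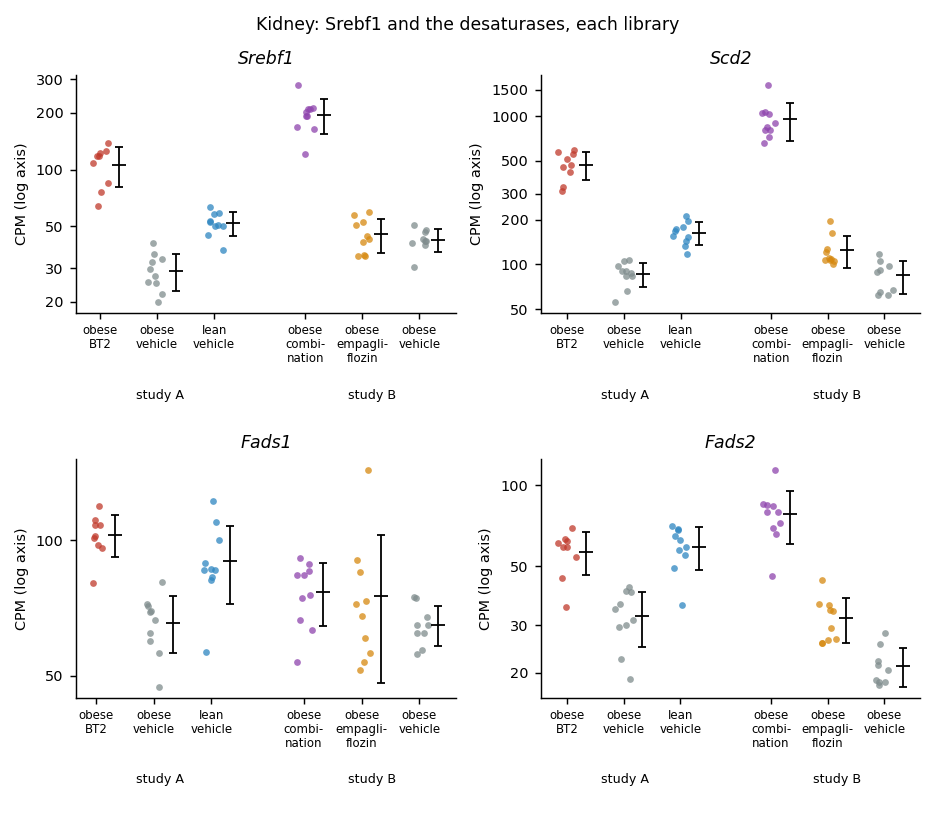
CPM of Srebf1, Scd2, Fads1 and Fads2 in every deep kidney library on a log axis, with the mean and SD of each group beside its points (n = 9 or 10). Srebf1 and Scd2 were highest in the combination group of study B and next in the BT2 group of study A. Both were lower in obese vehicle than in lean vehicle kidney of study A.

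Srebf1, the 3 desaturases of the 10 genes and Thrsp rose in obese kidney under BT2. The test called none of the enzymes from citrate to palmitate. The paralog Scd, outside the 10 genes, was not called (log2 fold change 0.07, edgeR adjusted p = 0.896). Of the 10 genes 5 were called in BT2 against vehicle kidney of study A, each of them higher, where 5.67% of 14311 genes were called and 2.26% were called higher. For Srebf1 and Scd2 the groups did not overlap, against 0.496% of all genes. This comparison shares its obese vehicle libraries with the comparison of obese and lean kidney. The median log2 fold change was 0.46 over the 10 genes and -0.009 over all genes tested.

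Srebf1 had a median of 118 CPM (63.8 to 138) in BT2 kidney and 28.5 CPM (19.9 to 40.8) in obese vehicle kidney. That was 3.62-fold higher, with a log2 fold change of 1.86 ± 0.15 (SE, n = 10 and 10 in the fit, edgeR adjusted p = 3.58e-08). Scd2 had a median of 466 CPM (313 to 595) in BT2 kidney and 88.9 CPM (55.9 to 107) in obese vehicle kidney, a 5.26-fold higher level. Its log2 fold change was 2.40 ± 0.18 with adjusted p = 1.03e-08, and the lowest BT2 library stood far above the highest vehicle library. Fads1 was 1.56-fold higher, with 102 CPM (80.2 to 119) in BT2 kidney and 68.0 CPM (47.3 to 80.9) in obese vehicle kidney. Fads2 was 1.74-fold higher, at 59.1 CPM (35.2 to 69.3) in BT2 kidney and 33 CPM (19.0 to 41.7) in obese vehicle kidney. In both genes all 9 BT2 libraries lay above the vehicle median, and the adjusted p was 0.000265 for Fads1 and 0.00103 for Fads2.

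Fasn had a median of 84.1 CPM (74.0 to 118) in BT2 kidney and 67.3 CPM (55.7 to 88.8) in obese vehicle kidney. All 9 BT2 libraries exceeded the vehicle median, but the log2 fold change of 0.29 (95% interval 0.08 to 0.49) had an adjusted p of 0.103. Acaca, Acly, Elovl6 and Me1 gave log2 fold changes of 0.13, 0.03, 0.22 and 0.17, with adjusted p of 0.33, 0.803, 0.338 and 0.224. Thrsp stood at 4.72 CPM (2.41 to 7.04) in BT2 kidney and 1.54 CPM (0.525 to 4.61) in obese vehicle kidney, a log2 fold change of 1.29 ± 0.31 with edgeR adjusted p = 0.0176. With all 6 kidney groups in one fit that p was 0.0504. The summed white adipocyte markers, mostly Cidec, had a median of 34.4 CPM (33.1 to 52.0) in BT2 kidney and 51.7 CPM (35.2 to 67.2) in obese vehicle kidney. Plin1 alone ran from 0.201 to 2.82 CPM in BT2 kidney and from 0 to 2.62 CPM in obese vehicle kidney. The part of fat cells in this Thrsp difference was not tested. Within plate 1 the log2 fold changes of Srebf1 and Scd2 were 2.05 and 2.36, and within plate 2 1.70 and 2.43, all past the threshold. Fads1 (0.65 and 0.64) and Thrsp (1.33 and 1.27) did not pass within either plate, nor Fads2 (0.78) within plate 2.

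Set against lean kidney, BT2-treated obese kidney had more Srebf1 and Scd2, less Me1, and Fads1 and Fads2 that did not pass the test. The test called 4 of the 10 genes higher and 1 lower in BT2-treated obese than in lean vehicle kidney, where 39.7% of 13880 genes were called, 19.0% higher and 20.7% lower. Over all genes that was 2634 higher and 2872 lower, and 3357 higher and 2133 lower with DESeq2's size factors. In 3 genes the groups did not overlap, against 5.26% of all genes. Srebf1 differed by 1.04 ± 0.13 and Scd2 by 1.46 ± 0.22 on the log2 scale, with edgeR adjusted p of 2.14e-06 and 2.96e-05. Summed macrophage markers had a median of 91.9 CPM (78.8 to 110.0) in BT2-treated obese kidney and 64.3 CPM (56.4 to 76.1) in lean vehicle kidney, and tubule markers 6850 CPM (6090 to 8530) and 11700 CPM (5400 to 12900). Summed liver markers (3 of 3 found) had a median of 37.5 CPM (26.2 to 46.7) in BT2-treated obese kidney and 3.42 CPM (2.18 to 90.7) in lean vehicle kidney. By medians over the 58 deep kidney libraries, that sum was mostly Fgb, at 24.7 CPM, beside 0.381 CPM for Alb and 0.388 CPM for Apoa1. In lean replicate 8, Alb stood at 72.2 CPM. The part of the macrophage, tubule and liver markers was not tested. Without lean replicate 8 and the shallow BT2 library, Srebf1 was at 1.08, Scd2 at 1.55 and Me1 at -0.73, each still called. Fads1 and Fads2 differed by 0.20 (95% interval -0.03 to 0.43) and -0.05 (-0.30 to 0.20), and Fads1 passed without the libraries of another tissue (0.19, adjusted p = 0.0307) and with DESeq2 (0.28, adjusted p = 0.0156). Fasn was 1.36-fold higher (adjusted p = 0.00574) and Elovl6 1.42-fold higher (adjusted p = 0.00608). Me1 was lower, with a median of 98.9 CPM (86.2 to 145) in BT2-treated obese kidney and 189 CPM (175 to 205) in lean vehicle kidney, a log2 fold change of -0.73 ± 0.10 (adjusted p = 1.41e-05). Thrsp differed by -0.27 (adjusted p = 0.653), and by 0.75 (adjusted p = 0.0967) without the lean libraries high in Plin1 or Ucp1.

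Empagliflozin alone went with higher Scd2 and Fads2 in obese kidney, and Srebf1 itself was not called. The test called 2 of the 10 genes higher in empagliflozin than in vehicle kidney of study B, where 1.06% of 14059 genes were called and 0.469% were called higher. Scd2 had a median of 110.0 CPM (101 to 195) in empagliflozin kidney and 89.5 CPM (62.1 to 118) in vehicle kidney, and 10 of 10 empagliflozin libraries exceeded the vehicle median. The log2 fold change was 0.60 ± 0.11 (edgeR adjusted p = 0.0122), and its adjusted p was 0.0887 without the plate term. Fads2 had a median of 31.6 CPM (25.7 to 44.2) in empagliflozin kidney and 20.4 CPM (18 to 28.1) in vehicle kidney, 1.53-fold higher with adjusted p = 0.00161. Srebf1 had medians of 43.8 CPM in empagliflozin kidney and 42.1 CPM in vehicle kidney, a log2 fold change of 0.07 (95% interval -0.14 to 0.29). The other 7 genes had adjusted p of 0.165 or more.

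Srebf1 and Scd2 levels were highest in the combination group among the 6 kidney groups, an order that mixes study with treatment. Fasn, Acaca and Me1 passed the test against vehicle of study B. The difference of BT2 effects with and without empagliflozin, given below, was called for Me1 and not for Srebf1, Scd2, Fasn or Acaca. Against vehicle kidney of study B, 8 of the 10 genes were called in combination kidney, each of them higher, with 32.1% of 14037 genes called and 17.3% called higher. In 4 genes the groups did not overlap, namely Srebf1, Scd2, Fads2 and Me1, against 3.47% of all genes. The median log2 fold change of the 10 was 0.59, against 0.006 over all genes. Summed macrophage markers had a median of 57.5 CPM (46.4 to 89.1) in combination kidney and 92.8 CPM (61.8 to 135) in vehicle kidney, and their part was not tested.

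Scd2 had a median of 868 CPM (657 to 1610) in combination kidney and 89.5 CPM (62.1 to 118) in vehicle kidney. Its log2 fold change was 3.52 ± 0.14 (SE, n = 10 and 10, edgeR adjusted p = 3.1e-14), an 11.5-fold higher level. Srebf1 had a median of 198 CPM (121 to 279) in combination kidney and 42.1 CPM (30.4 to 50.8) in vehicle kidney, 4.55-fold higher with a log2 fold change of 2.19 ± 0.10. Fads2 had 79.6 CPM (45.7 to 114) in combination kidney and 20.4 CPM (18 to 28.1) in vehicle kidney, 3.75-fold higher with adjusted p = 1.25e-11. Fads1, its neighbour in the polyunsaturated route, changed less. Its median was 79.6 CPM (53.8 to 91.3) in combination kidney and 64.7 CPM (55.9 to 74.7) in vehicle kidney, a log2 fold change of 0.25 ± 0.07 with adjusted p = 0.00626. That call was lost without the libraries that carried another tissue's transcripts (0.22, adjusted p = 0.0608) and with all kidney groups in one fit (0.25, adjusted p = 0.0663).

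Among the synthesis enzymes, Fasn had a median of 123 CPM (79.9 to 151) in combination kidney and 85.3 CPM (74.4 to 94.3) in vehicle kidney, a log2 fold change of 0.50 ± 0.08 with edgeR adjusted p = 6.96e-05. Acaca was 1.29-fold higher, at 35.7 CPM (26.6 to 39.3) in combination kidney and 28.1 CPM (22.2 to 29.5) in vehicle kidney (adjusted p = 0.000954). For both genes 9 of 10 combination libraries exceeded the vehicle median. Acly differed by 0.07 (95% interval -0.06 to 0.20) and Elovl6 by 0.00 (-0.40 to 0.40), and neither passed. Me1 had a median of 157 CPM (140 to 230) in combination kidney and 93.9 CPM (71.7 to 137) in vehicle kidney, 1.60-fold higher with adjusted p = 0.000165. Thrsp had a median of 8.28 CPM (4.57 to 21.0) in combination kidney and 2.47 CPM (1.10 to 7.23) in vehicle kidney, a log2 fold change of 1.75 ± 0.32 (adjusted p = 0.000221). The library at 21.0 CPM, replicate 5, also held Alb, the albumin of liver, at 855 CPM and Scd at 54.7 CPM, and replicates 4 and 1 held Alb at 262 and 96.1 CPM. Without the 4 combination libraries that carried another tissue's transcripts Thrsp differed by 1.39 (adjusted p = 0.00411), Scd2 by 3.58 and Srebf1 by 2.20. Within plate 2 alone the Fads1, Acaca and Thrsp differences (0.13, 0.33 and 0.97) did not pass, while Srebf1, Scd2, Fads2, Fasn and Me1 did. Scd was called in the comparison (2.09 ± 0.64, adjusted p = 0.015), with a median of 2.27 CPM in combination kidney and 1.00 CPM in vehicle kidney. Within plate 1 its mean was 18.4 ± 21.8 CPM in combination kidney and 2.48 ± 2.55 CPM in vehicle kidney (SD). Within plate 2 it was 1.44 ± 0.946 CPM in combination kidney and 1.09 ± 0.645 CPM in vehicle kidney.

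**Figure D2:**
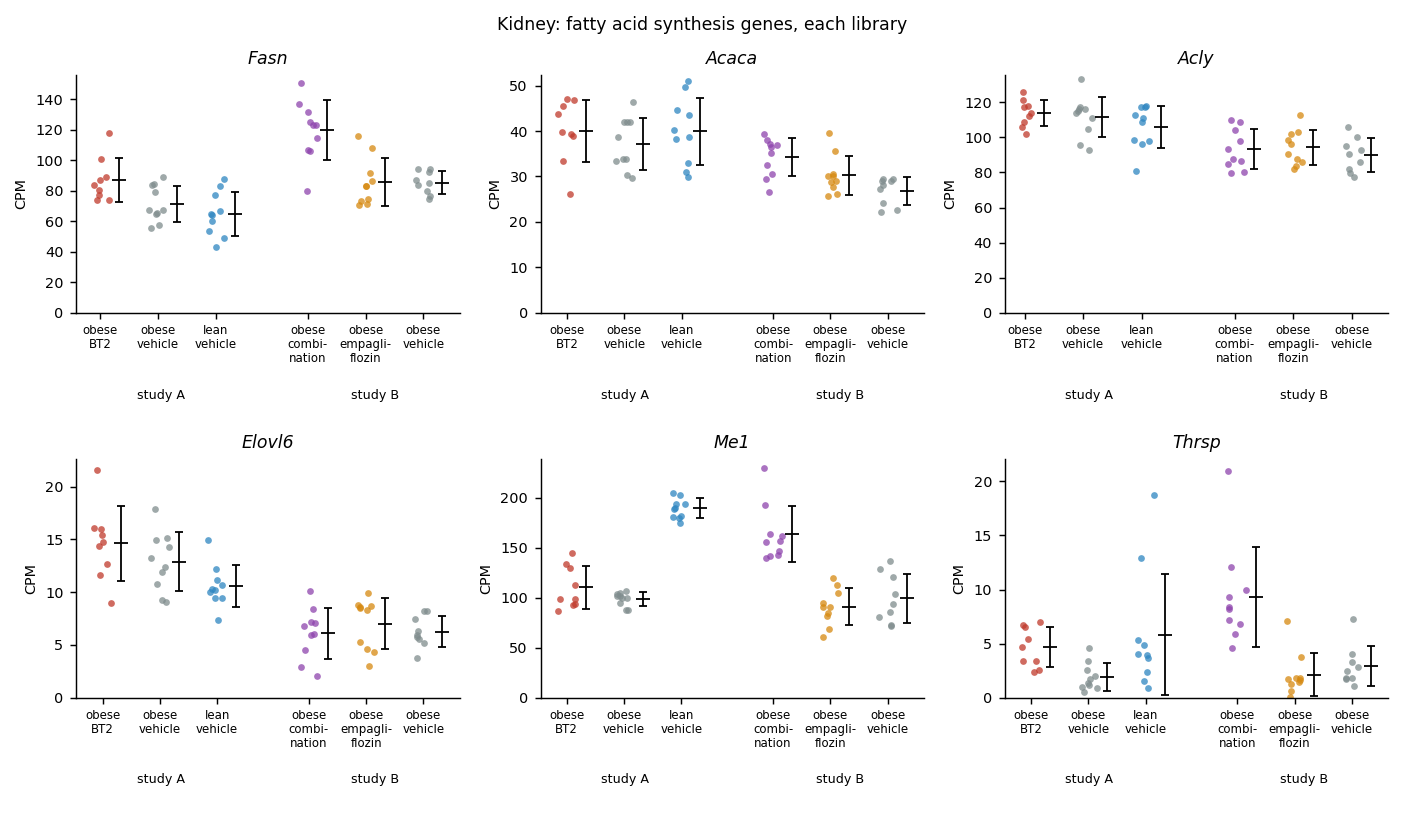
CPM of Fasn, Acaca, Acly, Elovl6, Me1 and Thrsp in every deep kidney library, with the mean and SD of each group (n = 9 or 10). Me1 separated lean vehicle kidney, all at 175 CPM or more, from obese vehicle kidney of study A, all at 107 CPM or less, and Acly overlapped in all groups.

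Adding BT2 to empagliflozin was compared directly within study B, with the combination libraries shared with the comparison above. The test called 6 of the 10 genes, each of them higher in combination than in empagliflozin kidney, with 31.7% of 13992 genes called and 17.0% called higher. Scd2 was 7.59-fold higher (2.92 ± 0.13, edgeR adjusted p = 1.14e-12), and Srebf1 4.28-fold higher (2.10 ± 0.13, adjusted p = 3.07e-10). Fads2 was 2.45-fold, Fasn 1.39-fold, Me1 1.79-fold and Thrsp 4.50-fold higher. Fads1 differed by 0.04 (95% interval -0.16 to 0.25), and Acaca by 0.18 with adjusted p = 0.0581. In 4 genes the groups did not overlap, against 2.56% of all genes. Summed macrophage markers had a median of 57.5 CPM (46.4 to 89.1) in combination kidney and 101 CPM (70.1 to 147) in empagliflozin kidney, and their part was not tested.

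Whether the BT2 effect differed with and without empagliflozin was tested as a difference of effects, in which 7.94% of 14704 genes were called, 4.79% higher and 3.15% lower. Of the 10 genes, 1 was called higher and 1 lower. Fads1 had the smaller effect with empagliflozin, a difference of -0.62 ± 0.15 (edgeR adjusted p = 0.0117), and Me1 the larger one, 0.67 ± 0.15 (adjusted p = 0.00567). For Srebf1 the difference was 0.24 (95% interval -0.15 to 0.63), for Scd2 0.53 (0.11 to 0.94, adjusted p = 0.117) and for Fads2 0.49 (0.14 to 0.85, adjusted p = 0.0853). The effects with and without empagliflozin come from separate studies, so study and co-treatment cannot be told apart. Within plate 1 alone the Fads1 and Me1 differences were -0.74 and 0.81, and within plate 2 alone -0.43 and 0.54, none past the threshold.

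Over the 6 kidney groups, mean Srebf1 ran from 195 ± 40.9 CPM in combination through 106 ± 25.2 CPM in BT2, 52.1 ± 7.34 CPM in lean vehicle, 45.5 ± 9.27 CPM in empagliflozin and 42.6 ± 5.80 CPM in study B vehicle to 29.2 ± 6.47 CPM in study A vehicle (SD, n = 9 or 10). Lean, empagliflozin and study B vehicle lay within their SDs of one another. Mean Scd2 followed the order 950 ± 271 CPM in combination, 470 ± 101 CPM in BT2, 164 ± 28.7 CPM in lean vehicle, 125 ± 30.3 CPM in empagliflozin, 86.8 ± 16 CPM in study A vehicle and 84.4 ± 20.8 CPM in study B vehicle. The obese vehicle groups of the 2 studies differed by more than the sum of their SDs in Srebf1 itself, and also in Elovl6, with a mean of 12.9 ± 2.78 CPM in study A and 6.26 ± 1.47 CPM in study B, in Fads2, with 32.5 ± 7.58 and 21.2 ± 3.53 CPM, in Acaca, with 37.2 ± 5.75 and 26.8 ± 3.0 CPM, and in Acly, with 112 ± 11.7 and 90.1 ± 9.72 CPM. The order across studies therefore mixes study with treatment. Tests between groups within an organ were made within a study only.

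In heart, Scd2 was the one gene of the 10 that was called with obesity, and none was called with BT2 alone. In obese against lean vehicle heart 1 of the 8 genes tested was called, lower, where 5.36% of 12694 genes were called and 2.03% were called lower. Scd2 had a median of 18.7 CPM (12.4 to 21.0) in obese vehicle heart and 33 CPM (23.3 to 38.1) in lean vehicle heart. The groups did not overlap, which held for 0.662% of all genes, and the log2 fold change was -0.83 ± 0.08 (SE, n = 10 and 10, edgeR adjusted p = 4.84e-07). Srebf1 had a median of 8.77 CPM in obese vehicle heart and 8.15 CPM in lean vehicle heart, a log2 fold change of 0.07 (95% interval -0.16 to 0.29). Me1 had 98.5 CPM (67.1 to 108) in obese vehicle heart and 104 CPM (46.3 to 123) in lean vehicle heart, a difference of -0.02 (-0.25 to 0.21). Heart Me1 moved with the plate, with plate 1 means of 104 to 129 CPM over the 6 groups and plate 2 means of 74.3 to 96.3 CPM.

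In BT2 against vehicle heart edgeR called 0 of 8 genes, in a comparison with 0.0558% of 12545 genes called. At an unadjusted p under 0.05 the count was also 0, and DESeq2 called 0. Srebf1 had medians of 9.52 CPM in BT2 heart and 8.77 CPM in obese vehicle heart, a log2 fold change of 0.03 (95% interval -0.18 to 0.25). Scd2 had 18.7 CPM (8.94 to 25.4) in BT2 heart and 18.7 CPM (12.4 to 21.0) in obese vehicle heart, a difference of 0.04 (-0.23 to 0.30). BT2-treated obese heart was below lean heart in Scd2, at -0.80 ± 0.12 with edgeR adjusted p = 0.000218, and in Fads2, at -0.58 ± 0.14 with adjusted p = 0.0204, so that 2 of 8 genes were called, both lower, where 4.27% of 12644 genes were called and 1.68% were called lower. The Fads2 call was lost with the replicate number as a block (-0.57, adjusted p = 0.0561). Fads2 had a median of 2.9 CPM (2.18 to 4.17) in BT2-treated obese heart and 4.55 CPM (2.91 to 7.12) in lean vehicle heart.

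In empagliflozin against vehicle heart edgeR called 0 of the 8 genes, where 0.107% of 12167 genes were called. DESeq2 called 1 of them, Scd2, and 2 had an unadjusted p under 0.05. Scd2 had a median of 27.4 CPM (20.9 to 42.3) in empagliflozin heart and 19.7 CPM (14.4 to 25.3) in vehicle heart, with all 10 empagliflozin libraries above the vehicle median, a log2 fold change of 0.50 (95% interval 0.27 to 0.72) and edgeR adjusted p = 0.0885. In combination heart Scd2 was called higher, the 1 call of 8, where 5.13% of 12117 genes were called and 3.58% were called higher. Its median was 31.9 CPM (20.3 to 41.2) in combination heart and 19.7 CPM (14.4 to 25.3) in vehicle heart, a log2 fold change of 0.64 ± 0.11 with adjusted p = 0.000818. The call was lost without the heart libraries that carried another tissue's transcripts (0.59, adjusted p = 0.0554) and without those that carried adipocyte transcripts (0.64, adjusted p = 0.123). Summed atrial markers (Myl7 and Nppa, 2 of 2) had a median of 996 CPM (536 to 3070) in combination heart and 1290 CPM (313 to 11500) in vehicle heart, and their part was not tested. The libraries of another tissue's transcripts were combination replicates 6, 8 and 9, with Myl7 at 735 and 830 CPM in replicates 6 and 8, and vehicle replicates 4, 5, 7 and 10, with Myl7 at 688, 1200, 2920 and 739 CPM. Fads2 went the other way in combination heart without passing, at -0.46 (95% interval -0.81 to -0.10, adjusted p = 0.157). In combination against empagliflozin heart edgeR called 0 of the 8, where 0.0249% of 12049 genes were called. The count was 0 at an unadjusted p under 0.05 and 0 by DESeq2. Scd2 differed there by 0.14 (95% interval -0.11 to 0.38).

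**Figure D3:**
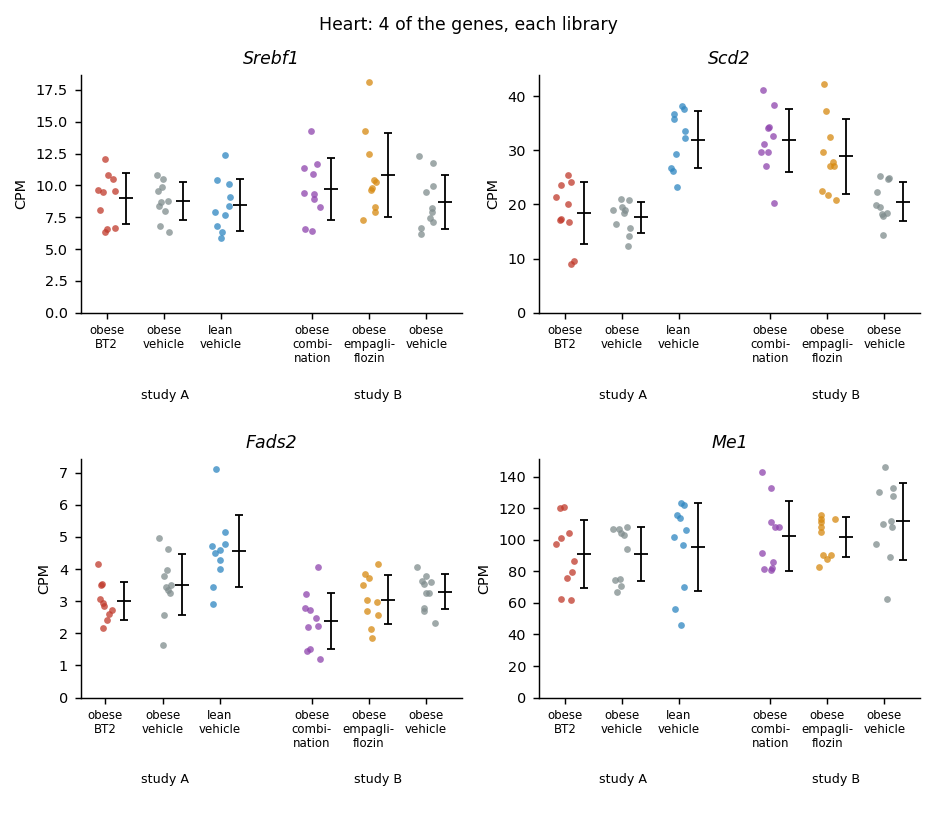
CPM of Srebf1, Scd2, Fads2 and Me1 in every heart library, with the mean and SD of each group (n = 10). Scd2 was lower in obese vehicle than in lean vehicle heart of study A without overlap, and Srebf1 overlapped in all 6 groups.

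The effects in kidney and heart were then set against each other as differences of effects, with all 10 genes in the fit. Elovl6 and Thrsp, too low to be tested within heart, entered this fit through their kidney levels. Their heart effects are hardly measured, and neither gene was called. Both organs hold the same 6 conditions and may come from the same rats, which the labels do not tie together, so the fit took all libraries as independent. For BT2 over vehicle, 4 of the 10 genes had a larger effect in kidney than in heart, where 0.487% of 14975 genes were called and 0.260% were called higher. These were Srebf1 (difference 1.82 ± 0.20, edgeR adjusted p = 1.11e-07), Scd2 (2.36 ± 0.22, adjusted p = 2.44e-09), Fads1 (0.74 ± 0.14, adjusted p = 0.00448) and Fads2 (1.00 ± 0.22, adjusted p = 0.0168). For the combination over vehicle, 6 of 10 had a larger effect in kidney, where 14.1% of 14692 genes were called and 6.89% were called higher. Scd2 led with 2.87 ± 0.18, then Fads2 with 2.35 ± 0.21, Srebf1 with 2.03 ± 0.19, Me1 with 0.80 ± 0.16, Fasn with 0.57 ± 0.20 and Fads1 with 0.47 ± 0.14. The Fasn difference, at adjusted p = 0.0485, was lost in 9 of the alternatives. For obesity, 2 of 10 had a lower effect in kidney than in heart, Srebf1 at -0.88 ± 0.18 and Me1 at -0.89 ± 0.15, where 13.7% of 14926 genes were called and 6.38% were called lower. The obesity effect on Scd2 differed between kidney and heart by -0.06 (95% interval -0.30 to 0.18).

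**Figure D4:**
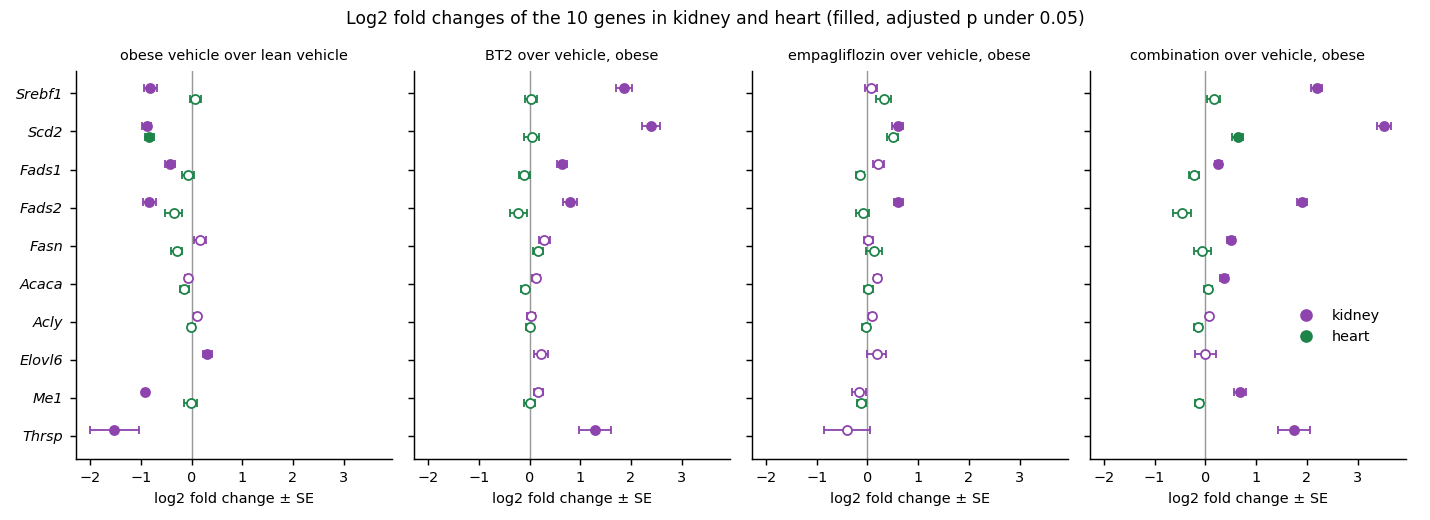
Log2 fold changes with SE of the 10 genes in 4 comparisons, kidney in purple and heart in green, filled where the edgeR adjusted p was under 0.05. The kidney points of Scd2 and Srebf1 stood furthest to the right in the BT2 and combination panels, and the heart point was filled only for Scd2, lower in obesity and higher with the combination.

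Thrsp was near 0 in most heart libraries and high in a few. Its heart medians ran from 0.00 CPM in the study A groups to 0.467 CPM in empagliflozin heart, but empagliflozin replicates 6 and 7 stood at 13.7 and 12 CPM, and study B vehicle replicates 7 and 6 at 11.3 and 7.26 CPM. The same 4 libraries held Plin1 at 11.1, 8.73, 10.2 and 7.10 CPM and Adipoq, the adiponectin of fat cells, at 13.1, 8.98, 9.95 and 11.4 CPM. Plin1 was at 0 in 34 of the 60 heart libraries and Adipoq at 0 in 22. In kidney, Plin1 was at 0 in 10 of 58 libraries, while Cidec and Adipoq were found in all 58. The part of adipocyte transcripts in these Thrsp levels was not tested.

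**Figure D5:**
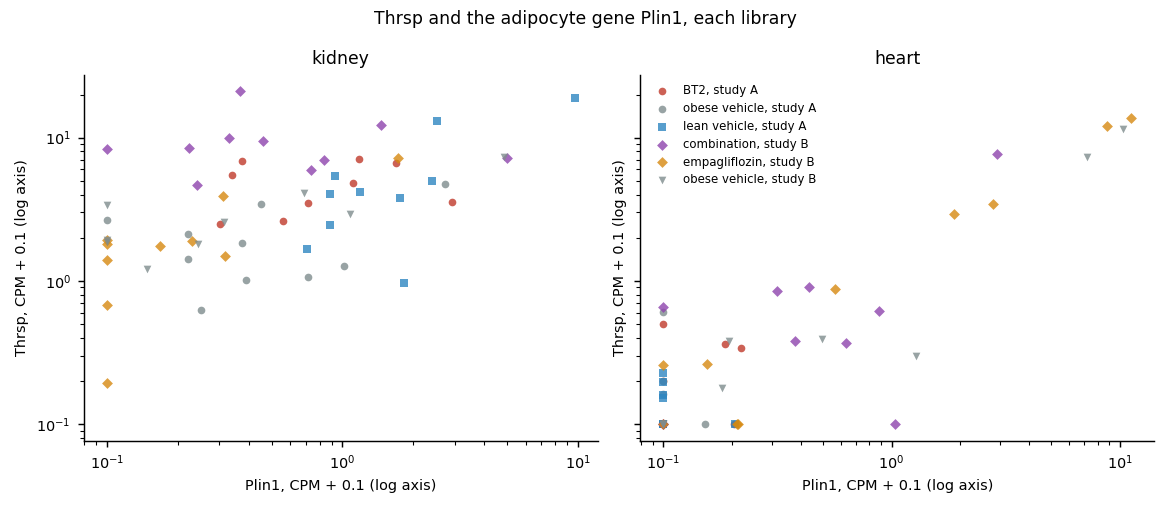
Thrsp against Plin1 in each deep library, CPM plus 0.1 on log axes, kidney on the left and heart on the right. The heart libraries above 5 CPM of Thrsp all held Plin1 above 2 CPM. In kidney the combination libraries, at 4.57 CPM of Thrsp or more, held Plin1 at 0 to 1.36 CPM, except replicate 9 at 4.90 CPM.

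Within groups, libraries with more Srebf1 also had more Scd2 and Fasn in kidney. Over 58 kidney libraries, as deviations of log2 CPM from the mean of their group and plate, Srebf1 and Scd2 had a Pearson r of 0.53 and a Spearman rho of 0.49 (permutation p = 0.00036 and 0.00073, adjusted p = 0.0029 and 0.0058 over 16 relations). Srebf1 and Fasn had r = 0.54 and rho = 0.54 (permutation p = 0.00013 and 0.00015, adjusted p = 0.0021 and 0.0024). Leaving out the libraries farthest from the median of Srebf1 gave r = 0.49 and 0.52. Within plate 1 and plate 2, r was 0.56 and 0.51 for Scd2 and 0.80 and 0.34 for Fasn. In 60 heart libraries Srebf1 and Fasn had r = 0.41 and rho = 0.38 (permutation p = 0.0086 and 0.0093, adjusted p = 0.046 and 0.05), whereas Srebf1 and Scd2 had r = 0.04. The 13 other relations had adjusted p of 0.26 or more. In kidney, Srebf1 and Fads1 had r = 0.00 and Srebf1 and Me1 r = 0.02.

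Over the 12 group means, centred within each organ, Srebf1 and Scd2 ran together with r = 0.95, Scd2 and Fads2 with r = 0.76 and Srebf1 and Me1 with r = 0.48, as descriptions over points that share libraries and scaling. Among 8669 other genes with at least 5 CPM in a group of each organ, those most like Srebf1 were Fhip2b (r = 0.962), Rhbdl3 (0.956), Inpp5j (0.936), Miga2 (0.921) and Fahd2a (0.920). Most like Scd2 were Noct (0.944), Sptb (0.924), Rhbdl3 (0.918), Arhgef37 (0.911) and Slc45a4 (0.902). The centred means of these genes spanned from 0.33 (Slc45a4) to 1.56 (Noct) on the log2 scale, with Fhip2b at 0.51. Noct encodes nocturnin, a phosphatase that acts on NADP(H), and Inpp5j an inositol polyphosphate phosphatase.

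Other genes of the pathway were followed in 6 lists, chosen with earlier results known. Their counts stand beside 32.0% of all genes called in obese against lean kidney, 5.67% with BT2 and 32.1% with the combination in kidney, and in heart 5.36% with obesity and 5.13% with the combination. Of 11 regulators of SREBP and sterol sensing, 1 was called higher and 1 lower in BT2 than in vehicle kidney (5.67% of all genes called). Insig1, which retains the SREBP precursor and is itself an SREBP target, was at 0.70 ± 0.10 on the log2 scale (edgeR adjusted p = 0.000103), and Mlxipl, which encodes the carbohydrate-sensing factor ChREBP, at -0.39 ± 0.10 (adjusted p = 0.0236). In combination kidney 7 of the 11 were called higher and 0 lower (17.3% of all genes called higher), led by Insig1 at 1.02 ± 0.08, with Nr1h3, the liver X receptor alpha, at 0.28 and Rxra, its partner, at 0.51. In obese vehicle against lean vehicle kidney 4 were called lower and 0 higher (15.2% of all genes called lower), among them Rxra at -0.42 and Nr1h3 at -0.23. In obese vehicle against lean vehicle heart the list gave 1 call, lower, Mlxipl at -1.10 ± 0.18 (adjusted p = 0.000409).

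Of the other desaturases and elongation enzymes (15 of 17 tested), 2 were called higher in BT2 than in vehicle kidney, Tecr, the last reductase of chain elongation, at 0.39 and Fads6, a desaturase-like gene, at 0.70. In combination against vehicle kidney 3 were called higher and 4 lower of 14 tested (32.1% of all genes called), with Elovl1, which elongates saturated very long chains, at -0.29 and Elovl2, which elongates polyunsaturated chains, at 0.62. In obese against lean kidney, with 32.0% of all genes called, 1 was called higher, Hacd4 at 0.58, and 5 lower, such as Elovl1 at -0.34 and Fads6 at -0.65.

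Among the genes that supply acetyl-CoA, malonyl-CoA and NADPH (12 tested of 14), 3 were called lower and 0 higher in obese than in lean kidney, where 32.0% of all genes were called. They were Idh1, the cytosolic isocitrate dehydrogenase that makes NADPH, at -0.65 ± 0.11, Mlycd, which degrades malonyl-CoA, at -0.48 ± 0.10, and Mcat of the mitochondrial synthesis route at -0.23. BT2 went with 2 higher, Slc25a1, the citrate carrier, at 0.25 and Acacb, the mitochondrial-facing carboxylase, at 0.46. The combination, with 32.1% of all genes called, went with 3 higher, Mlycd at 0.58, Idh1 at 0.46 and Acss2, which makes acetyl-CoA from acetate, at 0.58. The other 2 genes of the list were not analysed here.

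Of 14 genes of fatty acid activation and glycerolipid synthesis, 3 were called higher and 0 lower in BT2 than in vehicle kidney (5.67% of all genes called). Acsl1 and Acsl3, which activate fatty acids to acyl-CoA, were at 1.00 ± 0.11 and 0.57 ± 0.09, and Pnpla3, a lipid droplet hydrolase gene that SREBP-1c induces in liver, at 0.58 ± 0.11. In combination kidney 4 were called higher and 1 lower (32.1% of all genes called), with Pnpla3 at 1.60 ± 0.12 (edgeR adjusted p = 3.03e-09) and Gpam, the first acyltransferase of glycerolipid synthesis, at 0.56 ± 0.08. In obese against lean kidney 4 were called higher and 5 lower (32.0% of all genes called), with Plin2, a coat of lipid droplets, at 0.80 ± 0.09 and Pnpla3 at -0.57 ± 0.10. In obese against lean heart Pnpla3 was at -1.82 ± 0.28 (adjusted p = 0.000206), one of 1 lower and 2 higher calls.

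The genes of cholesterol synthesis and uptake, which SREBP-2 is known to drive, were followed as well. In obese against lean kidney 5 of 14 tested were called higher and 1 lower (32.0% of all genes called), with Hmgcs1, which makes HMG-CoA in the cytosol, at 0.55 ± 0.07, while Fdft1, squalene synthase, was at -0.30. With BT2, 4 of 15 were called higher and 0 lower (5.67% of all genes called), among them Fdft1 at 0.33 ± 0.07 and Fdps, farnesyl diphosphate synthase, at 0.25 ± 0.06. With the combination 7 of 15 were called higher and 0 lower (32.1% of all genes called), among them Fdft1 at 0.44 ± 0.09 and Cyp51, the lanosterol demethylase, at 0.31 ± 0.07. In heart edgeR called 0 of 14 in obese against lean, with 2 at an unadjusted p under 0.05 and 1 called by DESeq2. Against vehicle it called 0 with BT2 (1 unadjusted, 0 by DESeq2), 0 with empagliflozin (4 unadjusted, 1 by DESeq2) and 0 with the combination (4 unadjusted, 0 by DESeq2). The shares of all genes called in heart were 0.0558% with BT2, 0.107% with empagliflozin and 5.13% with the combination.

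Targets of PPAR-alpha, the receptor that raises fatty acid oxidation, were followed beside the synthesis route. In BT2 against vehicle kidney 5 of 13 were called higher and 0 lower (5.67% of all genes called), with Creb3l3 at 2.44 ± 0.20, the thiolase gene Acaa1b at 2.05 ± 0.18 and Ehhadh, of peroxisomal oxidation, at 1.54 ± 0.20. The median log2 fold change of the list was 0.39, beside 0.46 for the 10 genes and -0.009 for all genes. In combination kidney 9 of 12 were called higher and 2 lower (32.1% of all genes called), with Ehhadh at 2.24 ± 0.10. In obese against lean kidney 4 of 13 were called each way (32.0% of all genes called), with Angptl4, an inhibitor of lipoprotein lipase, at 2.25 ± 0.35 among the higher. In combination heart 4 of 10 were called lower than in vehicle heart and 0 higher (5.13% of all genes called), such as Angptl4 at -1.99 ± 0.24 and Pdk4, a kinase that restrains glucose oxidation, at -1.03 ± 0.14. With empagliflozin alone, edgeR gave 0 calls in kidney in each of these 6 lists, where 1.06% of all genes were called. At an unadjusted p under 0.05 there were 0 to 5 members a list, and DESeq2 called 4 PPAR-alpha targets and 1 gene of supply.

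The authors' deposited tables, made with their own test, hold 6 of the 10 genes lower and 1 higher at adjusted p under 0.05 in obese against lean kidney, where they call 6036 of 17657 genes. By the authors' deposited tables, 5 genes were higher with BT2, 2 with empagliflozin and 8 with the combination in kidney, each with 0 lower. Over all genes the authors' deposited tables call 1777 of 15631 with BT2, 550 of 13346 with empagliflozin and 4829 of 17310 with the combination in kidney. Their BT2 table holds no column of the shallow BT2 replicate 2, and their combination table none of study B vehicle replicate 8. Both libraries stayed in the tests here. Without libraries under 1000000 counts, edgeR called 1186 of 14447 genes with BT2 in kidney, beside 812 of 14311 with them. For heart the authors' deposited tables hold 1 gene lower in obesity, 0 changed with BT2, 1 higher with empagliflozin and 1 higher with the combination. Over all genes the authors' deposited tables for heart call 942 of 15551 with obesity, 82 of 16767 with BT2, 73 of 8717 with empagliflozin and 908 of 11281 with the combination.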

How the data were processed

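RNA was measured by poly-A RNA-seq in 120 libraries of kidney and heart. The authors deposited estimated counts per gene and sequencing run, which the values show not to be normalised. Per comparison they deposited a table of normalised counts, a signal proportional to the summed counts of a library in 56 of 56 columns checked (tolerance 0.5%). Per the file headers, these deposited tables also hold the log2 fold change and the p-value of the authors' own test. STAR 2.7.3a, Salmon 1.5.2, DESeq2 1.34.0 and build mRatBN7.2 are named in the submitters' processing notes, with no role given.

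Repeat runs (43 libraries) were summed, and the estimated counts, 6.85% of them not whole, were rounded. The count tables also hold 82 columns that match none of the samples used here, and these were left out. Each comparison used the edgeR 4.0.16 quasi-likelihood F test in R 4.3.3 on its own groups, with filterByExpr, TMM scaling, the trended dispersion and the plate number of the labels as a covariate. P-values were adjusted by Benjamini-Hochberg over all genes tested, and a gene was called at adjusted p under 0.05. SE is the log2 fold change divided by the square root of F, and 95% intervals are normal. CPM were scaled by TMM within an organ, and 2 libraries under 1000000 counts were left out of levels. The scripts were tested on simulated counts. DESeq2 1.42.0 and the other alternatives are described further on. Correlations used 100000 permutations of deviations from group and plate means, within group and plate.

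The 10 genes and the other lists were chosen with earlier results of these data known. Of each other list, the genes named are among the 4 called with the smallest adjusted p in a comparison. For likeness of pattern the 5 genes with the highest r are named. Some genes that this rule would name are not reported here. The study's text gives 10 rats per condition, and kidney and heart libraries were treated as separate samples.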

Additional observations from a re-analysis of the deposited data

Results flagged for a closer look

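In 11 of 120 combinations of gene and group, 1 library stood far from the rest by Dixon's criterion, which chance meets in about 1 of 20. In kidney, Scd2 was at 1610 CPM in combination replicate 3, where the others ran from 657 to 1070 CPM. Fads1 was at 143 CPM in empagliflozin replicate 5 (others 51.4 to 90.6). Thrsp was at 21.0 CPM in combination replicate 5 (others 4.57 to 12.1), at 7.06 CPM in empagliflozin replicate 1 (others 0.094 to 3.80) and at 7.23 CPM in study B vehicle replicate 10 (others 1.10 to 4.01). In heart, Thrsp was at 7.61 CPM in combination replicate 4 (others 0 to 0.801) and at 0.501 CPM in study A obese vehicle replicate 10 (others 0 to 0.0989). Fads2 was at 7.12 CPM in lean replicate 7 (others 2.91 to 5.15), and Fasn at 10.3 CPM in study A obese vehicle replicate 7 (others 5.38 to 7.88). Acly was low in heart, at 14.8 CPM in lean replicate 10 (others 17.8 to 20.5) and at 13.9 CPM in study B vehicle replicate 10 (others 18.1 to 22.6).

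A further 14 results differed between contexts by a test of the difference itself (edgeR, adjusted p under 0.05). The BT2 effect in kidney differed with and without empagliflozin for Fads1 (-0.62) and Me1 (0.67). The BT2 effect was larger in kidney than in heart for Srebf1 (1.82), Scd2 (2.36), Fads1 (0.74) and Fads2 (1.00). The combination effect was larger in kidney than in heart for Srebf1 (2.03), Scd2 (2.87), Fads1 (0.47), Fads2 (2.35), Fasn (0.57) and Me1 (0.80). The obesity effect was lower in kidney than in heart for Srebf1 (-0.88) and Me1 (-0.89).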

How the results depend on the processing

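Of 590 values of genes called in a comparison, recomputed under up to 13 other settings (1 of them, leaving out kidney libraries high in Plin1 or Ucp1, chosen after the data were seen), 534 stayed past the threshold, 56 did not and 0 changed sign. Of 1174 values that were not called, 17 passed under an alternative and 83 changed sign, 0 of them past the threshold. Srebf1 and Scd2 stayed past the threshold in kidney for obesity, BT2 and the combination under every other setting run. The counts of genes called moved by over 1.5 times as follows, and the cause was not tested. A single plate also holds fewer libraries, so plate and number of libraries cannot be told apart there. With plate 1 alone the counts were 3 for BT2 in kidney (5 otherwise), 3 for BT2-treated obese against lean kidney (5), 0 for empagliflozin in kidney (2), 2 for empagliflozin in heart (0), 0 for the combination in heart (1), 0 for the BT2 effect with and without empagliflozin in kidney (2) and 4 for the obesity effect between organs (2). With plate 2 alone they were 3 for obesity in kidney (7), 2 for BT2 in kidney (5), 1 for empagliflozin in kidney (2), 5 for the combination in kidney (8), 0 for BT2-treated obese against lean heart (2) and 0 for the combination in heart (1). Plate 2 alone also gave 0 for the BT2 effect with and without empagliflozin in kidney (2), 2 for the BT2 effect between organs (4) and 0 for the obesity effect between organs (2). Without the plate term the counts were 1 for empagliflozin in kidney (2) and 1 for the BT2 effect with and without empagliflozin (2). DESeq2 called 1 gene for empagliflozin in heart (0). In combination heart the count was 0 without libraries carrying another tissue's transcripts and 0 without those carrying adipocyte transcripts (1). Correlations of same-numbered libraries, as deviations from group and plate means, ran from -0.61 to 0.44. At most 6 of 10 pairs were over 0.1, in empagliflozin against vehicle heart, where the median was 0.12. The numbers were not taken as pairs, and this descriptive check cannot exclude pairing. With the replicate number as a block the count for BT2-treated obese against lean heart was 1 (2), and all genes called for BT2 in kidney were 290 (812).

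Over all genes, the number called for BT2 in kidney ran from 70 to 1546 over these settings (812), for empagliflozin in kidney from 2 to 610 (149), for the combination in heart from 6 to 905 (622) and for empagliflozin in heart from 0 to 1236 (13). The same ranges were 976 to 5423 for obesity in kidney (4560), 2451 to 7058 for BT2-treated obese against lean kidney (5506), 1754 to 4916 for the combination in kidney (4510), 1133 to 4836 for combination against empagliflozin kidney (4442). In heart they were 49 to 1068 for obesity in heart (680), 0 to 82 for BT2 in heart (7), 25 to 811 for BT2-treated obese against lean heart (540), 0 to 60 for combination against empagliflozin heart (3). For differences of effects they were 2 to 1654 for the BT2 effect with and without empagliflozin in kidney (1168), 4 to 185 for the BT2 effect between organs (73), 396 to 2320 for the combination effect between organs (2069) and 86 to 2755 for the obesity effect between organs (2045). DESeq2 moved the median log2 fold change of all genes to 0.177 for BT2-treated obese against lean kidney (-0.02 with edgeR) and to -0.149 for the BT2 effect with and without empagliflozin (-0.007 with edgeR). The calls lost most often were the difference between organs of the combination effect on Fasn (9 settings), the kidney obesity calls of Elovl6 and Thrsp (4 each) and the Scd2 call of combination heart (4). Elovl6 and Thrsp were too low in heart to be tested there.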
